A study of Luffa aegyptiaca with 4 samples.

Results

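LOX1, LOX2, LOX3 and LOX5 of the sponge gourd Luffa aegyptiaca are 4 of the 29 lipoxygenases named in a table of 48619 transcripts. They share an intermediate level in control plants and a partial reduction under heat. They were chosen on these same libraries, as lipoxygenases with a control mean between 3 and 15 FPKM, a heat mean of at least 0.5 FPKM and a fall of 0.5 to 2 in mean log2(FPKM + 1). FPKM counts fragments relative to transcript length and to all fragments mapped in its library, so levels can be compared between genes of different length. Their levels and their difference between control and heat are therefore a description, and no test is given for them.

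The study sequenced RNA from 4 samples, 2 controls and 2 under heat stress, each labelled as biological replicate 1 or 2 of its group. The labels name no genotype, cultivar, organ, age, temperature or duration of heat, so what limits the treatment as a model of heat stress is not known from them. No transcript of a tissue marker could be matched to the numbered rows, and the labelled source, given only as tissue, could not be checked. Summed FPKM lay between 551921 and 599611 per library, and between 22556 and 24068 transcripts were above 0. The read depth behind each value is unknown.

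Lipoxygenases insert molecular oxygen into polyunsaturated fatty acids such as linoleic and linolenic acid. Plant enzymes are commonly grouped by the carbon atom they oxygenate, as 9-lipoxygenases or 13-lipoxygenases. The plastid 13-lipoxygenases supply the hydroperoxides from which jasmonic acid and green leaf volatiles are made, and the products of 9-lipoxygenases include other oxylipins. Neither the labels nor the table assign LOX1, LOX2, LOX3 or LOX5 to a subfamily, and none is given here. Their numbers follow the Luffa table and need not match the numbering of lipoxygenases in Arabidopsis or tomato.

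LOX2 (Laeg_LOX2.t01) was the most abundant of the 4 and kept the largest part of its control level. Control replicate 1 had 12.5 FPKM and control replicate 2 had 14.4 FPKM, while heat replicate 1 had 6.06 FPKM and heat replicate 2 had 7.68 FPKM. Both heat values lay below both control values, but the replicates were also the least close of the 4 genes on the log2(FPKM + 1) scale. The mean level was 13.4 ± 1.35 FPKM in control and 6.87 ± 1.15 FPKM under heat (SD, n = 2 per group), so that heat libraries held 51.1% of the control level. The ratio of control to heat was 1.96, and it ranged from 1.62 to 2.38 over the 4 ways of pairing 1 control with 1 heat library. In bulk tissue, fewer cells expressing a gene and less RNA per cell cannot be told apart, here and for the other genes.

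LOX1 (Laeg_LOX1.t01) had the most repeatable values. Its control values were 10.2 FPKM (replicate 1) and 10.9 FPKM (replicate 2), and its heat values 3.24 and 3.36 FPKM in the same order. The difference between the groups was many times the difference between replicates of either group. The mean level was 10.6 ± 0.497 FPKM in control and 3.30 ± 0.0898 FPKM under heat (SD, n = 2 per group), and 31.3% of the control level was left. The ratio of control to heat was 3.20, with a range of 3.03 to 3.37 over the library pairs.

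LOX5 (Laeg_LOX5-T1) had control values of 8.15 FPKM (replicate 1) and 7.48 FPKM (replicate 2), and heat values of 1.45 and 1.75 FPKM in the same order. Control replicate 1 was the higher control for LOX5, whereas control replicate 2 was the higher one for LOX1, LOX2 and LOX3. The mean level was 7.81 ± 0.475 FPKM in control and 1.60 ± 0.216 FPKM under heat (SD, n = 2 per group). Heat libraries held 20.5% of the control level, and the ratio of control to heat was 4.88, with a range of 4.27 to 5.63 over the library pairs. The row name of LOX5 ends in -T1, an ending carried by 2 rows of the table, the other being LOX25. The sources used here do not say what that ending marks.

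LOX3 (Laeg_LOX3.t01) was the least abundant of the 4. Its control values were 3.05 FPKM (replicate 1) and 3.47 FPKM (replicate 2), and its heat values 0.631 and 0.445 FPKM in the same order. Heat replicate 1 was the higher heat library for LOX3, whereas heat replicate 2 was the higher one for LOX1, LOX2 and LOX5. The mean level was 3.26 ± 0.296 FPKM in control and 0.538 ± 0.131 FPKM under heat (SD, n = 2 per group), and 16.5% of the control level was left. The ratio of control to heat, 6.06, was the highest of the 4 and had the widest range over the library pairs, from 4.83 to 7.79.

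**Figure D1:**
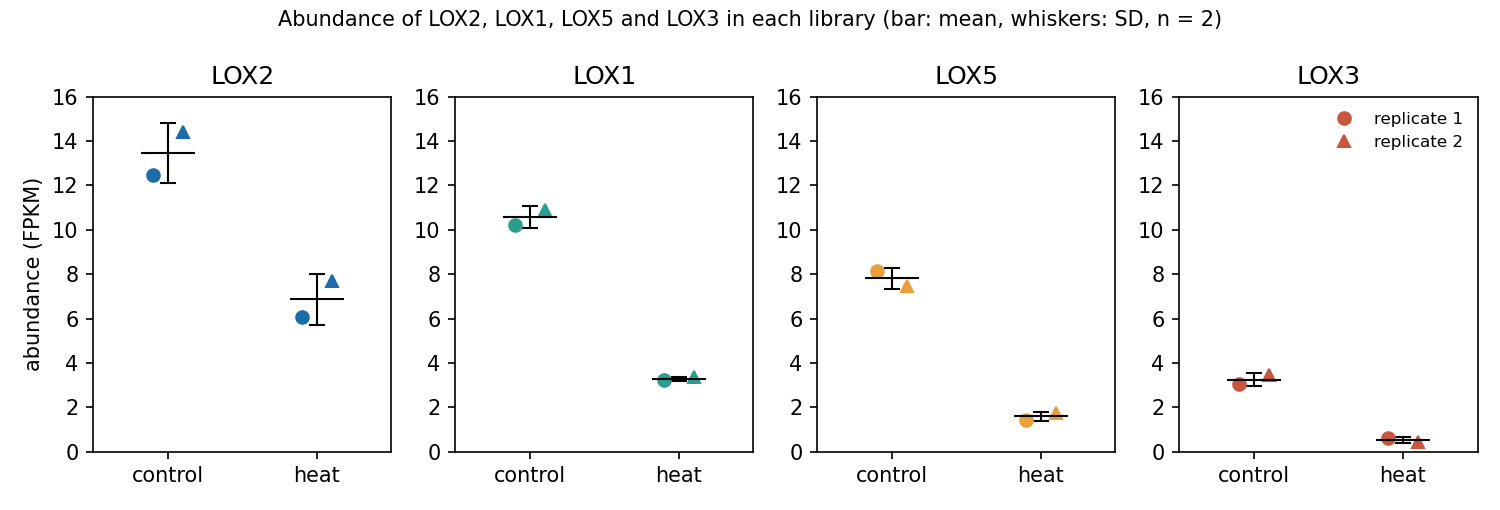
Abundance in FPKM of LOX2, LOX1, LOX5 and LOX3 in the 2 control and the 2 heat libraries. Circles are replicate 1 and triangles replicate 2, the horizontal bar is the mean and the whiskers are the SD. In every panel both heat values lie below both control values, and as a ratio the lowest control and the highest heat value are closest for LOX2, at 1.62.

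All 4 genes had both heat libraries below both controls. The rule required a lower heat mean, so this count is set beside the background only: 49.6% of the 18186 tested transcripts (those with a mean of at least 1 FPKM) showed the same arrangement, and 37.5% the opposite one. By limma with Benjamini-Hochberg adjustment at an adjusted p of 0.05, 42.5% of tested transcripts were lower under heat and 30.9% higher. The excess of lower calls rests on the scaling: as deposited 7735 were lower and 5617 higher, against 6643 and 6662 after median-of-ratios rescaling. A partial reduction from an intermediate control level was common in these libraries: 2415 transcripts, 13.3% of those tested, met the same bounds on level and fall as the 4 lipoxygenases. Among the 7378 tested transcripts with a control mean between 3 and 15 FPKM, 32.7% met them.

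On the log2(FPKM + 1) scale the changes, heat minus control, were -0.88 for LOX2, -1.43 for LOX1, -1.47 for LOX3 and -1.76 for LOX5. Their standard errors in the limma fit were 0.16, 0.14, 0.18 and 0.16 in the same order. LOX1 and LOX3 thus differed by less than either standard error. This scale compresses changes at low levels, which is why LOX3 had the highest ratio of mean FPKM but not the largest log2 change. With a pseudocount of 0.1 the change of LOX3 was -2.41 and that of LOX5 -2.22, so the order of these genes rests on the scale chosen. LOX2 had the smallest difference on both scales.

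The median log2 change of the 4 genes was -1.45, against -0.20 for all tested transcripts and -0.27 for those with a control mean between 3 and 15 FPKM. The quartiles of the transcripts of this control level were -1.20 and 0.60. LOX1, LOX3 and LOX5 lay below the lower quartile, and LOX2 lay above it. Of the transcripts of this control level, 32.5% had a more negative change than LOX2, 19.5% than LOX1, 18.6% than LOX3 and 12.8% than LOX5. Measured from the median of all tested transcripts, the change was -0.68 for LOX2 and -1.56 for LOX5.

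On the log2(FPKM + 1) scale, replicates of the 4 genes differed about as much as those of other transcripts of like control level. The heat level of those transcripts was not matched. The median absolute difference between replicates on the log2(FPKM + 1) scale was 0.14 in control and 0.21 under heat for transcripts with a control mean between 3 and 15 FPKM. LOX2 exceeded both, with replicate differences of 0.19 in control and 0.30 under heat. LOX1 was below both, at 0.09 and 0.04. LOX3, at 0.14 and 0.17, was close to them, and LOX5, at 0.11 and 0.17, was below both. This scale compresses differences at the low heat level of LOX3. As a ratio of FPKM, higher over lower, LOX3 had the least close heat replicates of the 4, at 1.42, against 1.27 for LOX2.

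The bounds left 4 of the 8 lipoxygenases with a control mean between 3 and 15 FPKM. LOX8, LOX9 and LOX11 each failed on both a heat mean under 0.5 FPKM and a fall over 2. LOX27 was dropped because it was higher under heat. LOX3 was the member closest to a bound: its control mean of 3.26 and heat mean of 0.538 FPKM were just inside, and heat replicate 2 taken alone was outside. On the other side, LOX9 was the nearest excluded gene by heat mean, at 0.276 FPKM, and LOX29 by lower control mean, at 2.32 FPKM. LOX29 also failed on the fall, with a change of -0.08. The upper control bound lay between LOX2, at 13.4 FPKM, and LOX15, at 19.0 FPKM. LOX15 also failed on the heat mean, at 0 FPKM, and on the fall, with a change of -4.31. The bound on a large fall separated LOX5, with a change of -1.76, from LOX9, with -2.28.

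**Figure D2:**
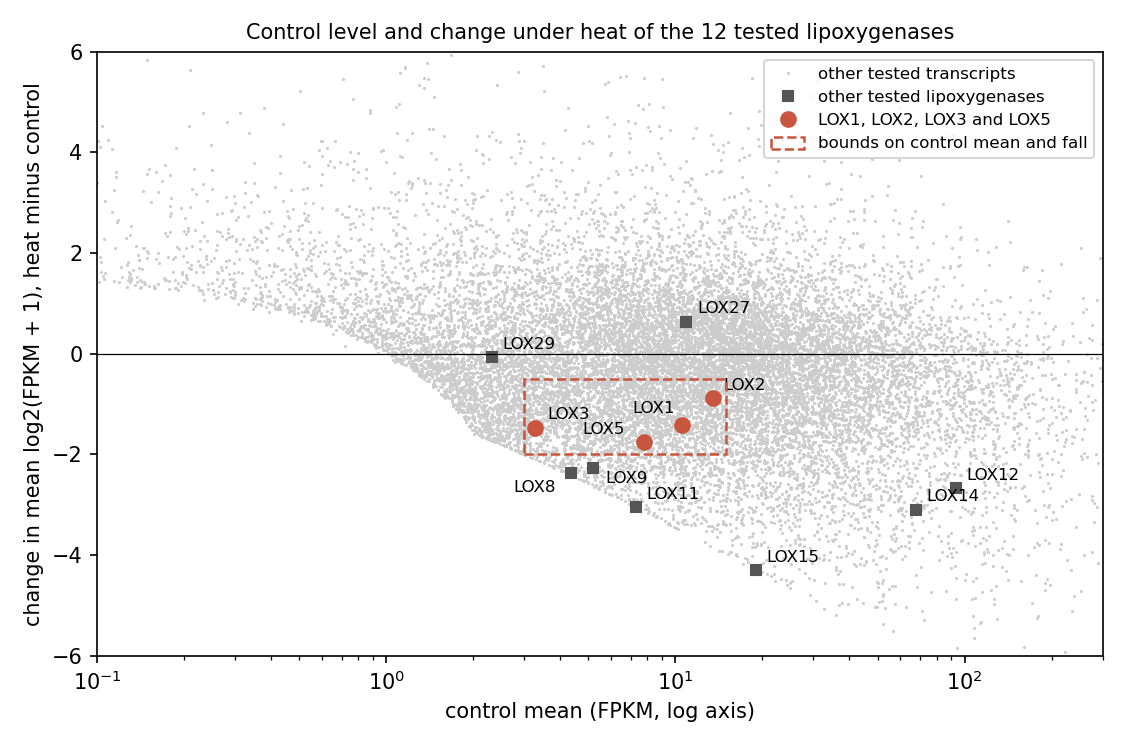
Control mean in FPKM (log axis) against the change in mean log2(FPKM + 1), heat minus control, for the 12 tested lipoxygenases and, as grey dots, the other tested transcripts. The dashed box marks the bounds of 3 to 15 FPKM and of 0.5 to 2 on the fall. LOX3 lies near the left edge of the box, LOX5 near its lower edge, and LOX8 and LOX9 just under it. The axes leave out 723 of the 18186 tested transcripts, none of them a lipoxygenase.

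The order of abundance was LOX2, LOX1, LOX5 and LOX3, from highest to lowest, in each of the 4 libraries. Within each group no neighbours in that order overlapped. The closest neighbours were LOX2 and LOX1 in control replicate 1, where LOX2 was 1.22 times as abundant, and LOX1 and LOX5 in the same library, with a ratio of 1.25. Under heat the levels were spread more widely. LOX2 was 4.09 times as abundant as LOX3 in control replicate 1 and 4.15 times in control replicate 2, against 9.60 times in heat replicate 1 and 17.3 times in heat replicate 2. The ratio of LOX2 to LOX1 was 1.22 and 1.32 in control, against 1.87 and 2.28 in the heat libraries. The ratio of LOX5 to LOX3, by contrast, overlapped between the groups, at 2.67 and 2.16 in control and 2.29 and 3.94 under heat.

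The composition of the group therefore differed between control and heat. Of the summed FPKM of the 4, LOX2 made up 36.8% and 39.7% in the controls, and 53.3% and 58.0% under heat. LOX5 made up 24.0% and 20.6% in the controls and 12.7% and 13.2% under heat. LOX3 held 8.998% and 9.57% in the controls and 5.55% and 3.36% under heat. In percentage points LOX1 varied least between the group means, with 30.1% in both controls and 28.5% and 25.4% under heat. These shares must sum to a whole, so the larger share of LOX2 is not separate from the smaller shares of the others.

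Summed over the 4 genes, the level was 35.1 ± 1.67 FPKM in control and 12.3 ± 1.33 FPKM under heat (SD, n = 2 per group), a ratio of 2.85. The other 25 lipoxygenases together stood at 211.5 ± 6.98 FPKM in control and 41.2 ± 0.728 FPKM under heat, a ratio of 5.14. Most of the latter sum in control came from LOX12 and LOX14, and without those the remaining 23 had a ratio of 2.49. The 23 include LOX27, which was higher under heat. Of the family's summed FPKM the 4 genes held 14.1% and 14.3% in the control libraries, against 21.9% and 24.1% in the heat libraries, replicate 1 first. The difference between these ratios was not tested, since the 4 genes were chosen on this contrast.

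In percentage points most of the larger family share under heat lay in LOX2, although its own level fell. The ratio of control to heat was 1.96 for LOX2 and 4.61 for the whole family. Without LOX12 and LOX14 the ratio of the other 23 was 2.49, below the 2.85 of the 4 genes. Those 23 included LOX27, which rose from 10.9 FPKM in control to 17.5 FPKM under heat. LOX27 held most of their summed 20.3 FPKM under heat, and their ratio without it was not computed. LOX8, LOX9, LOX11 and LOX15, also among the 23, each had a heat mean under 0.5 FPKM. With LOX27 counted, the larger share therefore rests on LOX12 and LOX14 being in the family sum. The part of LOX2 in the family's total was 5.19% and 5.70% in the controls and 11.6% and 13.99% under heat. LOX1 went from 4.24% and 4.32% to 6.22% and 6.12%. LOX5 held 3.39% and 2.96% in the controls and 2.78% and 3.19% under heat, values that overlapped. LOX3 held 1.27% and 1.37% in the controls and 1.21% and 0.810% under heat. Among the 29 lipoxygenases LOX2 ranked 4 in both controls, 4 in heat replicate 1 and 3 in heat replicate 2. LOX1 ranked 6 in both controls and 5 in both heat libraries, LOX5 ranked 7 in all 4 libraries, and LOX3 went from rank 11 to rank 8.

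**Figure D3:**
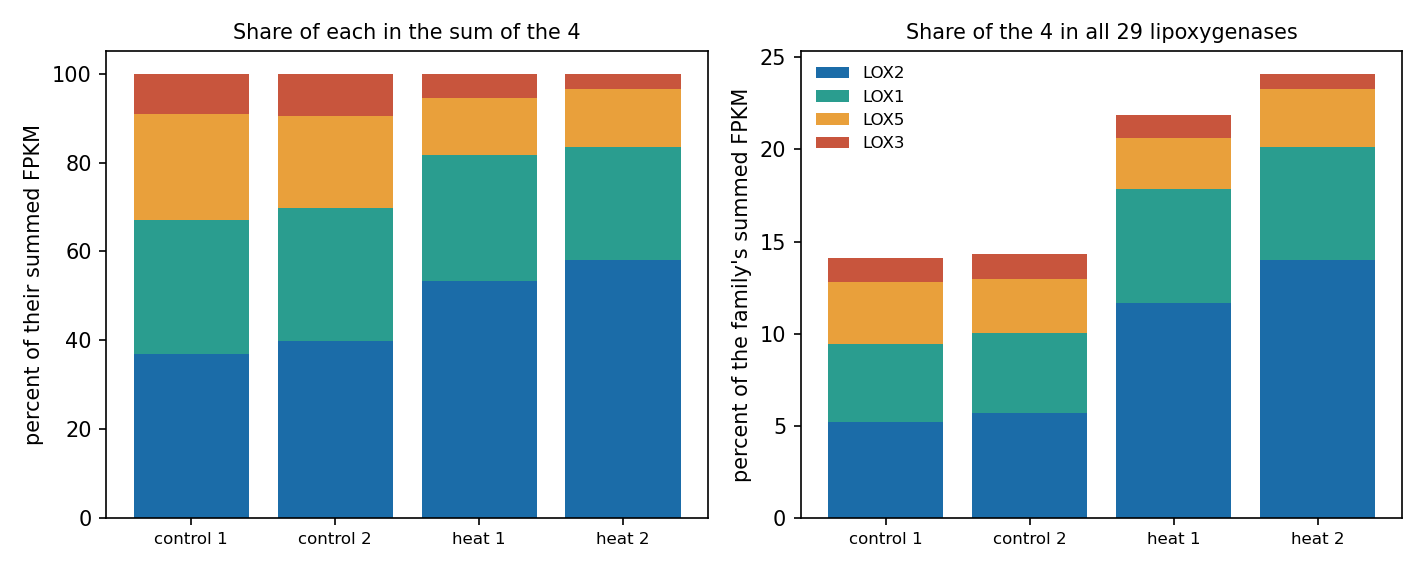
Stacked bars per library of the share of LOX2, LOX1, LOX5 and LOX3 in their own summed FPKM (left, percent) and in the summed FPKM of all 29 lipoxygenases (right, percent). The LOX2 segment is 36.8% and 39.7% of the left bars in control and 53.3% and 58.0% under heat, and the right bars are taller under heat, at 21.9% and 24.1% against 14.1% and 14.3%.

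Against all transcripts of the library, the 4 genes moved down in rank. Of the transcripts above 0, LOX2 exceeded 64.7% and 69.0% in the controls and 56.1% and 60.5% under heat. LOX1 exceeded 60.0% and 62.4% in the controls and 45.9% and 46.5% under heat. LOX5 exceeded 54.9% and 53.6% in the controls and 33.6% and 36.5% under heat. LOX3 exceeded 36.8% and 39.5% in the controls and 22.5% and 18.4% under heat. Ranks do not depend on how a library was scaled. For each of the 4 genes both heat ranks lay below both control ranks. The genes were chosen for a fall between these same libraries, so lower heat ranks largely follow from that choice. By FPKM, 49.6% of tested transcripts had both heat libraries below both controls, and the share by rank was not computed.

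The rest of the named family gives the setting. Of the other 8 lipoxygenases abundant enough to be tested, 6 were called lower, 1 was called higher (LOX27) and 1, LOX29, was called neither. Calls were by limma at a Benjamini-Hochberg adjusted p threshold of 0.05 over all tested transcripts. Among all tested transcripts, 42.5% were lower and 30.9% higher at that threshold with the values as deposited. The median log2 change of these other 8 lipoxygenases was -2.52, against -1.45 for LOX1, LOX2, LOX3 and LOX5. The rule left out any lipoxygenase with a fall over 2, so this difference follows from the choice of genes. The remaining 17 lipoxygenases were under the minimum for testing, and 9 of those were listed at 0 in every library. LOX1, LOX2, LOX3 and LOX5 were above 0 in all 4 libraries. Lipoxygenases can be near copies of one another, and the sources used here do not say how reads matching several copies were counted, so the level of a single member is uncertain by an unknown amount. No other gene of the jasmonate pathway, such as allene oxide synthase or the JAZ repressors, could be matched to a row.

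By likeness of profile (Euclidean distance of log2(FPKM + 1) over the 4 libraries), LOX1 and LOX5 were the closest pair among the 4, at a distance of 1.18. The lipoxygenase nearest to LOX2 was LOX1, at 1.32, and the lipoxygenase nearest to LOX3 was LOX9, at 0.86. The bounds on the heat mean and on the fall had both left out LOX9. These distances were not small for the table: 1526 unnamed transcripts lay nearer to LOX1 than LOX5 did, and 755 lay nearer to LOX3 than LOX9 did. The unnamed transcripts nearest to the mean profile of the 4 genes were Luffa_aegyptiaca06618.t01, at a distance of 0.09, and Luffa_aegyptiaca33148.t01, at 0.10. Luffa_aegyptiaca06618.t01 had control values of 8.07 and 8.04 FPKM and heat values of 2.18 and 2.47 FPKM. Luffa_aegyptiaca33148.t01 had control values of 7.27 and 8.64 FPKM and heat values of 2.35 and 2.49 FPKM.

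Rescaling the libraries reduced the differences without turning any of them. After division by median-of-ratios factors, which set the median change of all tested transcripts at 0.01 instead of -0.20, the ratio of control to heat was 1.65 for LOX2, 2.69 for LOX1, 4.12 for LOX5 and 5.08 for LOX3. After quantile normalization it was 1.64, 2.49, 3.69 and 4.96 in the same order. The order of the 4 ratios was the same under each scaling. Median-of-ratios factors change every ratio by nearly the same proportion, so that rescaling could hardly alter the order. The control mean of LOX3 was 2.98 FPKM after the former and 2.79 FPKM after the latter, below the bound of 3 FPKM, so under either scaling the rule would choose LOX1, LOX2 and LOX5 alone.

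**Figure D4:**
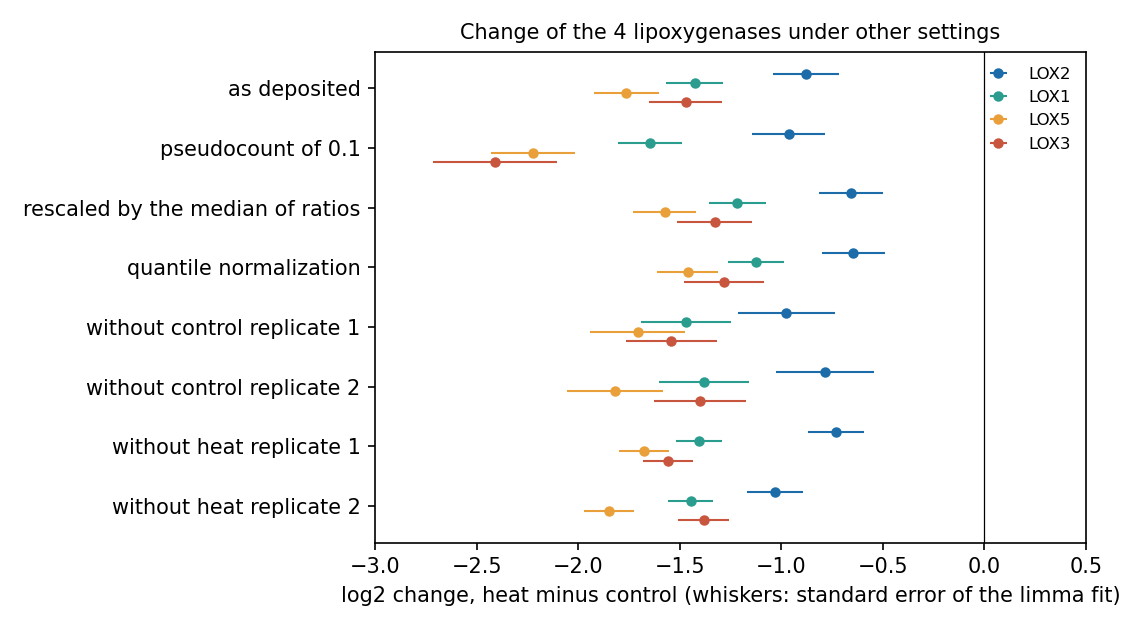
Log2 change, heat minus control, of LOX2, LOX1, LOX5 and LOX3 with the values as deposited and under other settings. Points are the fitted changes and whiskers the standard errors of the limma fit. All points lie below 0, LOX2 lies nearest to 0 in every setting drawn, and LOX3 moves furthest, from -1.47 to -2.41 with a pseudocount of 0.1.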

How the data were processed

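RNA-seq was done on 2 control and 2 heat-stressed samples. The authors deposited 1 table of FPKM values, 1 column per sample. Per the submitters' processing notes, fastp 0.20.1, HISAT2 2.2.1 and StringTie 2.0 were used. The genome build, the annotation and the handling of reads with several matches are not given there or in the labels. All 4 columns matched 1 sample title each. Low values held no common step (at most 0.791% of rows at 1 ratio between libraries), so no reads were recovered and depth is unknown.

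The 18186 transcripts averaging 1 FPKM or more were converted to log2(FPKM + 1) and fitted in R 4.3.3 with limma 3.58.1, with group as the only term, a mean-variance trend and two-sided Benjamini-Hochberg adjustment. The fit was tried on simulated data in which few transcripts changed, unlike these libraries, so the trial does not measure its errors here. The p-values measure spread between these libraries, since the labels do not say that replicates came from separate plants. The members and lists were chosen with earlier results of these data known. The genes named are the 4 members, lipoxygenases next to a bound or nearest in profile, and the 2 unnamed rows nearest to their mean profile; LOX8, LOX11, LOX12, LOX14, LOX25 and LOX27 were named after their values were seen. The lists for the jasmonate pathway and for tissue markers had no matched row.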

Additional observations from a re-analysis of the deposited data

How the results depend on the processing

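In each of the 11 alternatives, each of the 4 log2 changes that could be computed stayed negative. The genes were chosen for a fall, so this sign is no test. Dropping the filter, raising it to 5 FPKM, leaving out the trend or adding a replicate block cannot alter a fitted change. With a pseudocount of 0.1 the changes were -1.65 for LOX1, -2.41 for LOX3 and -2.22 for LOX5, while LOX2 moved by less than its replicate SD. After median-of-ratios rescaling they were -1.22 for LOX1, -0.66 for LOX2, -1.33 for LOX3 and -1.57 for LOX5, and after quantile normalization -1.13, -0.65, -1.28 and -1.46 in that order. The control-to-heat ratio of the summed FPKM of the 4 was 2.40 and 2.28 under these scalings, against 2.85. Their share of the family in control was 13.1% after quantile normalization, against 14.2%. Leaving out 1 library at a time gave changes from -1.47 to -1.38 for LOX1, -1.03 to -0.73 for LOX2, -1.56 to -1.38 for LOX3 and -1.85 to -1.68 for LOX5; these fits assume that a lone library varies as the other group does. LOX3 and LOX5 gave no value at a minimum mean of 5 FPKM, being below it.

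The rule chose 3 lipoxygenases, without LOX3, under either scaling and without heat replicate 1, and the same 4 without any other single library; these alternatives were chosen after seeing the data. All calls numbered 13352, and 9687 to 14924 over the alternatives, none beyond 1.5 times. Higher and lower calls were 5617 and 7735 as deposited and 6662 and 6643 after median-of-ratios rescaling. With a replicate block 13149 transcripts passed. The 4 changes were the same as without it, as they must be when each group holds each replicate number once. Across transcripts, the replicate difference in control had a correlation of -0.07 with that under heat, so the numbers were not taken to pair the samples. Depth is unknown, so its limit on LOX3 under heat cannot be stated.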
